A study of Homo sapiens with 15 samples.

Results

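ATGL, the enzyme encoded by PNPLA2, was put back into a PNPLA2 knockout line in 3 forms, and gene expression in the 9 libraries of the 3 addback lines was compared with that in the 3 libraries of the knockout. The 12 libraries were chosen by their genotype labels out of the 15 of the series, and no measured value entered the choice. All cells were C4-2, a castration-resistant prostate cancer line derived from LNCaP. KO is the ATGL knockout, KO_WT is the knockout with wild-type ATGL added back, KO_S47A is the knockout with the S47A protein, which the submitters describe as lipolytically inactive, and KO_S404A is the knockout with the S404A protein. The remaining 3 libraries are the Scramble control, whose levels are given beside the others for reference. Every group was grown in glucose-free RPMI1640 to which 5 mM glucose and 5% dialyzed serum had been added, and the lines are described as isogenic. Each genotype is 1 line; the sources used here name neither the promoter of the added ATGL nor whether a line is a clone or a pool. No label states that the 3 libraries of a line came from separate cultures. The p-values therefore reflect only how far these samples vary, and that variation may be technical.

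ATGL removes the outermost fatty acid of the triglycerides stored in lipid droplets, the opening step of lipolysis. ABHD5 activates it and G0S2 inhibits it, and LIPE and MGLL carry the breakdown on to glycerol. The released fatty acids feed mitochondrial oxidation and supply ligands to the PPAR receptors. Serine 47 is the catalytic serine, and the serine changed in S404A lies in the carboxy-terminal region and is a known phosphorylation site. A change found in all 3 addback lines is by definition also present with the S47A protein.

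Both changed serines are shown in their coding context, since they define the lines. In the GENCODE release 29 transcript the open reading frame encodes 504 residues, counted from 1 at the initiator methionine. The windows run 5′ to 3′ over codons 43 to 51 and 400 to 408, with the serine codon in capitals. Residue 47 is the serine of the only GXSXG motif (glycine, any residue, serine, any residue, glycine) in the protein, the form of a lipase active site, and the serine changed in S404A lies in none. Which codons the added constructs carry was not stated in the sources used here.
S47A: atctacggcgccTCGgccggggcgctc
S404A: cgccgcgtccagTCGctgccgtccgtg

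Counts in genes ran from 41521069 to 64345775 over the 12 libraries, of which libraries 1, 2 and 3 of each group are named by the number in their labels. In every group the library numbered 3 stood apart from the other two. On the component that holds 46.5% of the variance of the 12 libraries, the libraries numbered 3 lay at 44.6 (KO), 36.0 (KO_WT), 23.1 (KO_S47A) and 44.2 (KO_S404A), and the 8 others between -44.7 and 14.2. KO_S404A library 2 and KO library 1 stood apart on the next component, at 36.0 and 26.4. No label says what sets the libraries numbered 3 apart, so each result is given with all libraries, and where they bear on it with libraries 1 and 2 alone and with library number 3 as a covariate. The prostate identity of the lines held at the level of markers: KLK3 lay between 1830 and 3464 CPM (counts scaled to the size of the library) in the 12 libraries and KRT8 between 320 and 384. Of 18 markers of stroma, endothelium and blood, 8 stayed under 0.1 CPM in all 12 libraries, among them PTPRC, PECAM1 and CDH5, and CD3E and DCN had 0 counts. The summed level of the 18 was 33.1 to 40.7 CPM in KO and 40.1 to 55.0 CPM in the addback lines, most of it from COL1A1, VWF and CD68, and its part in the results was not tested. In such bulk samples fewer cells of a type and less RNA per cell cannot be told apart. Of 21 markers of other epithelial lines, summed to 6.12 to 6.82 CPM in KO and 6.09 to 9.92 CPM in the addback lines, ALB, KRT5 and TP63 had 0 counts.

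PNPLA2 itself was measured at 13.0, 11.8 and 9.11 CPM in KO libraries 1, 2 and 3. It stood at 213, 207 and 240 CPM in KO_WT, at 113, 110 and 164 CPM in KO_S47A and at 303, 443 and 492.8 CPM in KO_S404A. All 9 addback libraries lay above all KO libraries, and also above the Scramble libraries, at 54.3, 47.05 and 45.3 CPM. The lowest addback level, 110 CPM, was in the S47A line. Pooled over the lines PNPLA2 rose 20.1-fold (log2 fold change 4.33 ± 0.21 SE, adjusted p = 1.46e-07 by edgeR's quasi-likelihood test). Taken singly, the KO_WT line had a log2 fold change of 4.28 ± 0.22 SE, the S47A line one of 3.51 ± 0.21 SE and the S404A line one of 5.19 ± 0.23 SE. A difference of PNPLA2 among the 3 lines was called with all libraries (adjusted p = 0.0373). With 1 library left out, this comparison called 1 gene without KO library 3, KO_S47A library 3 or KO_S404A library 1, and 0 genes without any of the 9 others. Gene-level counts do not separate the transcript of the disrupted gene from the added one.

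**Figure D1:**
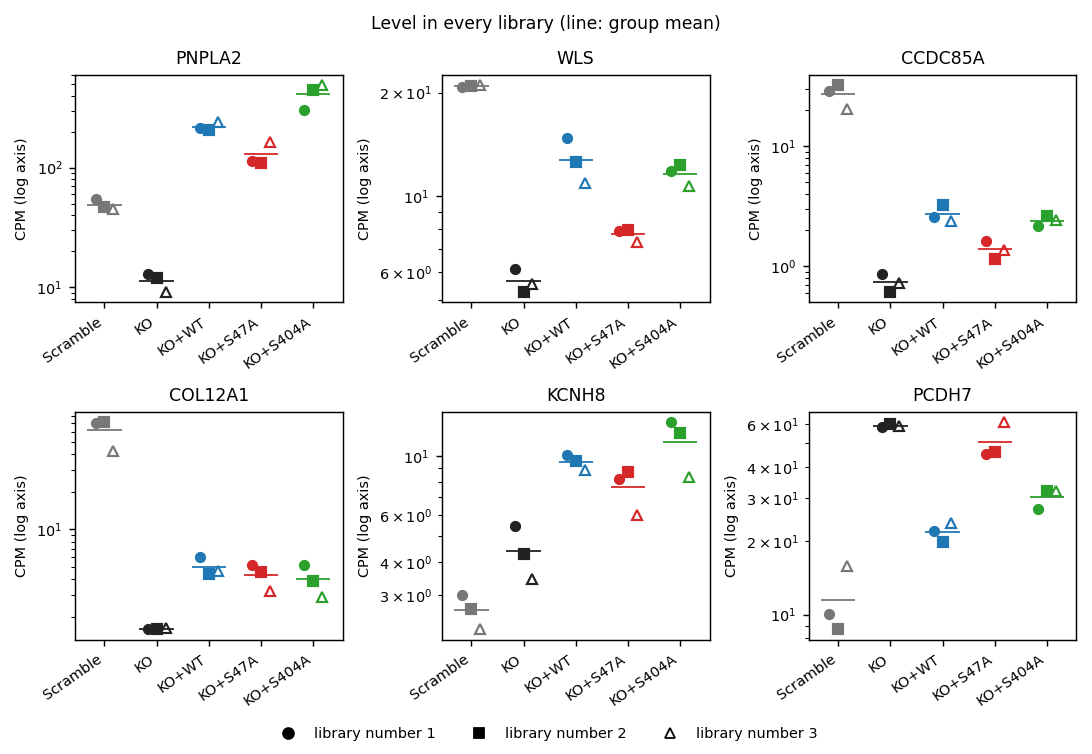
Level of 6 genes in each of the 15 libraries, in TMM-scaled CPM on a log axis, by group; filled circles and squares are libraries 1 and 2, open triangles library 3, and lines are group means. For PNPLA2, WLS, CCDC85A, COL12A1 and KCNH8 the 9 addback libraries lie above the 3 KO libraries, and for PCDH7 KO_S47A library 3 (61.1 CPM) lies above the 3 KO libraries.

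With all libraries and no term for the library number, 3 of 14246 genes (0.0211%) were called between the pooled addback lines and KO, PNPLA2, WLS and CCDC85A, all higher, and 0 were lower. At an unadjusted p under 0.05 there were 906 higher and 606 lower genes, and DESeq2 called 18 higher and 3 lower. The 3 genes had the same direction in each line and no overlap of the 9 addback with the 3 KO libraries, so all met the definition of a shared change. No overlap alone was more frequent: 134 genes (0.941%) had all 9 addback libraries above KO, and 78 (0.548%) had all 9 below.

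WLS encodes Wntless, the carrier that brings Wnt ligands to the cell surface. It stood at 6.12, 5.26 and 5.55 CPM in KO, against 14.7, 12.5 and 10.9 in KO_WT, 7.91, 7.97 and 7.34 in KO_S47A, with 11.8, 12.3 and 10.7 in KO_S404A. The S47A libraries were the lowest of the addback libraries and still lay above every KO library. All remained below the Scramble level of 20.8, 20.9 and 21.1 CPM. The pooled rise was 1.85-fold (log2 fold change 0.89 ± 0.10 SE, adjusted p = 0.00375). CCDC85A, a coiled-coil protein gene, stood at 0.863, 0.613 and 0.729 CPM in KO, where the 3 libraries held 115 counts together. It reached 2.55, 3.25 and 2.40 CPM in KO_WT, 1.63, 1.16 and 1.37 CPM in KO_S47A and 2.17, 2.61 and 2.44 CPM in KO_S404A. The groups did not overlap, and Scramble lay far above all of them at 28.8, 32.4 and 20.6 CPM. The pooled rise of CCDC85A was 2.85-fold (log2 fold change 1.51 ± 0.19 SE, adjusted p = 0.00721). Both calls were lost without KO library 2 (WLS adjusted p = 0.0894, CCDC85A 0.143) and without KO library 3 (0.0716 and 0.109). They were also lost when the 9 addback libraries were fitted as 1 group, which counts the differences between lines as spread (0.47 and 0.292).

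Line by line, against the same 3 KO libraries, 4 genes (0.0281%) were called in KO_WT, 1 (0.00702%) in KO_S47A and 3 (0.0211%) in KO_S404A. PNPLA2 was the gene called in each line separately. WLS and CCDC85A were called in KO_WT (adjusted p = 0.000964 and 0.00247) and in KO_S404A (0.00365 and 0.00735). In KO_S47A neither was called with all libraries and no covariate, each with an adjusted p of 0.274. Their log2 fold changes there were 0.46 (95% interval 0.20 to 0.71) for WLS and 0.92 (0.45 to 1.39) for CCDC85A. Both were called in KO_S47A with library number 3 as a covariate, at log2 fold changes of 0.46 and 0.92 (adjusted p = 0.00852 for WLS and 0.00843 for CCDC85A), and in libraries 1 and 2 alone (0.0242 and 0.0269). In KO_WT they were 1.17 (0.92 to 1.43) and 1.90 (1.43 to 2.36). A difference between the lines was not called for either gene (adjusted p = 0.373 for WLS and 0.814 for CCDC85A), and with library number 3 as a covariate it was called for WLS (0.0302) and not for CCDC85A (0.222). With the library number as a block, the count of called genes was 15 in KO_WT and 3150 in KO_S47A. The deviations of libraries 1 and 2 from their group means did not pair clearly by number, so that pairing within the block is not shown by these data.

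The fourth call in KO_WT was PCDH7, a protocadherin gene, which fell by 1.44 on the log2 scale (SE 0.18, adjusted p = 0.00763). PCDH7 stood at 58.6, 60.0 and 58.7 CPM in KO, at 21.9, 19.9 and 23.7 in KO_WT and at 27.0, 31.8 and 32.1 in KO_S404A. In KO_S47A it stood at 45.2, 46.1 and 61.1 CPM, with library 3 above all KO libraries, so it is no change shared by the 3 lines. Its log2 fold change in KO_S47A was -0.22 (95% interval -0.61 to 0.17), and -0.24 (-0.50 to 0.02) with the covariate. In libraries 1 and 2 alone it fell by 0.38 in KO_S47A (adjusted p = 0.0328). Scramble stood at 10.1, 8.72 and 15.7 CPM. The difference among the addback lines was not called for PCDH7 with all libraries (adjusted p = 0.273) and was called with library number 3 as a covariate (0.00112). With all libraries PNPLA2 was the 1 gene (0.00702%) called as different among the lines. With the covariate WLS, PCDH7 and EPHA6 joined it. That count of 4 was 2581 without KO_S404A library 1, 9 without KO_S47A library 3, 2 without KO_S47A library 1 or library 2 and 0 without the S47A line. EPHA6, an ephrin receptor, stood at 14.8, 15.1 and 11.9 CPM in KO, at 10.2, 9.40 and 6.89 in KO_WT, at 19.9, 19.0 and 14.0 in KO_S47A and at 13.3, 8.64 and 8.43 in KO_S404A. S47A libraries 1 and 2 lay above all KO libraries and library 3 within the KO range, whereas all KO_WT libraries lay below KO and those of KO_S404A within or below it (adjusted p = 0.00431 for the difference with the covariate).

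With library number 3 as a covariate, an analysis added after the data were seen, 932 genes (6.54%) were higher and 1072 (7.52%) lower in the pooled addback lines. In libraries 1 and 2 alone the counts were 1081 (7.53%) and 1100 (7.66%). These counts rest on few samples: with the covariate 48 genes were called without the S47A line, 47 without KO library 1, 6 without KO library 2 and 3636 without KO_S404A library 2. Of the genes called with the covariate, 141 also had all 9 addback libraries on 1 side of KO, 96 above and 45 below. The S47A line had the largest log2 fold change in 103 of the 141 (73.0%, against 51.1% of all genes). The 141 had to pass a pooled call that includes the S47A line, so a large value in that line favoured selection. The excess over 51.1% is therefore no separate result about these genes. On its own KO_S47A called 128 of the 141, KO_WT 6 and KO_S404A 6. The covariate counts over all genes behind this, 3259 in KO_S47A, 21 in KO_WT and 20 in KO_S404A, moved with single libraries. KO_WT had 1285 without KO library 3, 1452 without KO_S404A library 1 and 1156 without KO_S404A library 2, and otherwise 6 (without KO library 2) to 24. KO_S404A had 529 without KO library 3, 94 without KO_S404A library 2, and otherwise 5 (without KO library 1 or 2) to 49 (without KO_S404A library 3). KO_S47A had 1073 (without KO_S47A library 1) to 4178 (without KO_S404A library 2). The count of 141 became 15 without the S47A line, 20 without KO library 1 and 5 without KO library 2.

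Each of 6 genes was called in all 15 repeats of the covariate analysis that left out 1 line or 1 library: PNPLA2, KCNH8, WLS, COL12A1, PCDH7 and CCDC85A. COL12A1 encodes a chain of collagen XII, which decorates collagen fibrils. It stood at 1.60, 1.60 and 1.63 CPM in KO and at 6.00, 4.45 and 4.66 in KO_WT, 5.24, 4.56 and 3.25 in KO_S47A, with 5.23, 3.89 and 2.87 in KO_S404A. The 3 lines overlapped with each other and not with KO, and their level stayed far under that of Scramble, at 71.1, 71.7 and 42.5 CPM. The log2 fold change of COL12A1 was 1.46 ± 0.23 SE with all libraries (adjusted p = 0.0619) and 1.45 ± 0.16 SE with the covariate (0.000248). KCNH8 encodes a voltage-gated potassium channel. It stood at 5.45, 4.27 and 3.44 CPM in KO and at 10.1, 9.59 and 8.85 in KO_WT, 8.17, 8.74 and 6.01 in KO_S47A, with 13.4, 12.2 and 8.32 in KO_S404A. Here Scramble, at 3.00, 2.65 and 2.23 CPM, lay below KO, so the addback libraries lay further from Scramble than KO did. The log2 fold change of KCNH8 was 1.10 ± 0.18 SE with all libraries (adjusted p = 0.0916) and 1.10 ± 0.11 SE with the covariate (0.000141). Its difference among the lines was not called (adjusted p = 0.814 with all libraries and 0.222 with the covariate).

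A further group was named after its values were seen, by the largest log2 fold changes among the genes called with the covariate whose libraries did not overlap and whose mean was at least 1 CPM in KO or in the addback lines. Genes under that level, some with larger fold changes, were left out. Within the group, beside PNPLA2, PRSS1, a trypsinogen gene, had the largest fold, from 1.68, 1.91 and 0.991 CPM in KO to 10.2, 7.94 and 2.55 in KO_WT, 18.6, 17.3 and 2.32 in KO_S47A, with 12.2, 4.67 and 2.09 in KO_S404A. Its library 3 was low in every line. PRSS1 has near-identical relatives, and reads shared with them make its count uncertain. PLAC1, a placenta-enriched gene expressed in many tumours, rose from 1.25, 1.39 and 1.38 CPM in KO to between 1.93 and 4.30 CPM in the addback lines (log2 fold change 1.10 ± 0.20 SE with the covariate, adjusted p = 0.00847). BDKRB2, the bradykinin B2 receptor, and DDR2, a collagen-binding receptor tyrosine kinase, lay at 0.580 to 0.658 and 0.801 to 0.919 CPM in KO and at 0.807 to 4.20 and 1.19 to 4.09 CPM in the addback lines. GABBR1, a subunit of the GABA-B receptor, and CROCCL2, a pseudogene whose reads its parent gene may share, completed those that rose. CROCCL2 stood at 0.349, 0.793 and 0.561 CPM in KO and at 0.870 to 1.48 CPM in the addback lines. PRSS1 kept its covariate call in 14 of the 15 repeats, GABBR1 in 10 and PLAC1, BDKRB2, DDR2 and CROCCL2 each in 12. Line by line with the covariate, each of these genes was called in KO_S47A, PRSS1 also in KO_WT (adjusted p = 0.0351), and none in KO_S404A. GABBR1 and CROCCL2 were not called in libraries 1 and 2 alone (adjusted p = 0.0699 and 0.0644).

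Among genes that fell by the same rule, HLF, a PAR-type bZIP transcription factor, went from 15.6, 14.5 and 15.9 CPM to between 10.0 and 13.7 CPM (log2 fold change -0.38 ± 0.08 SE, adjusted p = 0.0112 with the covariate). HOXA11, a homeobox transcription factor, stood at 8.90 to 10.6 CPM in KO and 4.94 to 8.58 CPM in the addback lines, and HSPB1, a small heat shock protein, at 420 to 480 CPM and 235 to 412 CPM. Others that fell were XKR5, DUSP19, ZNF702P, B4GALT6, FAM81A and CHML, with log2 fold changes of -0.99 to -0.41. The covariate call was kept in 8 of the 15 repeats for XKR5, DUSP19 and HSPB1, and in 12 for the other fallen genes named. Shared lower genes, 45 with the covariate, numbered 3 without KO library 1 and 0 without KO library 2. None of the named fallen genes was called in KO_WT or KO_S404A singly with the covariate. ZNF702P was not called in libraries 1 and 2 alone (adjusted p = 0.0876). With all libraries and no covariate none of these risen or fallen genes was called, each with an adjusted p of 0.465.

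**Figure D2:**
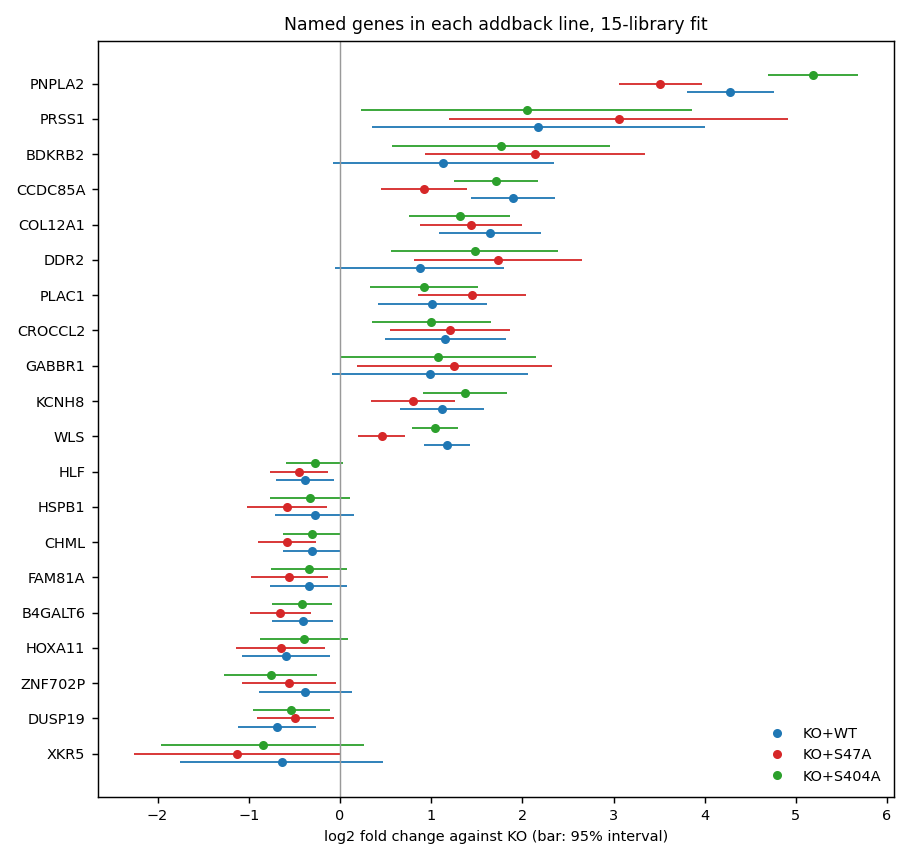
log2 fold change against KO in each addback line for PNPLA2, WLS, CCDC85A and the genes named after their values were seen, from the analysis of all 15 libraries without a covariate; dots are estimates and bars 95% intervals. Dots of the 3 lines lie on 1 side of 0 for each gene. For genes other than PNPLA2 this was required by the rule that chose them, so it is no separate result. WLS and CCDC85A have their smallest value in KO_S47A, and the fold changes share the same 3 KO libraries.

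Of the gene lists examined, those furthest from 0 in libraries 1 and 2 were cell cycle genes, targets of ATF4 and chaperones of the endoplasmic reticulum. ATF4 is the transcription factor of the amino acid and integrated stress responses. The chaperones fold secreted proteins and rise when unfolded protein accumulates in that compartment. In libraries 1 and 2 the median log2 difference between the addback mean and KO was -0.80 over 43 proliferation genes, 0.66 over 44 ATF4 and amino acid response genes and 0.69 over 27 chaperone list genes, against 0.00 over all tested genes. All 43 lay below KO, and all 44 and all 27 lay above. In the libraries numbered 3 the medians were -0.14, 0.14 and 0.05, with 40 of 43 genes below KO, and 31 of 44 and 21 of 27 above. With all libraries and no covariate 0 genes of these lists were called. With the covariate 41 of 43 proliferation genes fell, 34 of 44 ATF4 list genes rose and 23 of 27 chaperone list genes rose, where 7.52% of all genes fell and 6.54% rose. None of these list calls held without the S47A line, without KO library 1 or without KO library 2. The medians then lay at -0.45 to -0.52, 0.37 to 0.42 and 0.35 to 0.40. The 3 lists also separate the library numbers within groups, the proliferation genes being higher in libraries 3 than in libraries 1 and 2 by a median log2 difference of 1.0, and the ATF4 list and chaperone list differing by -1.18 and -0.54 (0.55, -0.72 and 0.01 within KO alone). The part of the library number in these differences was not tested beyond these values.

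**Figure D3:**
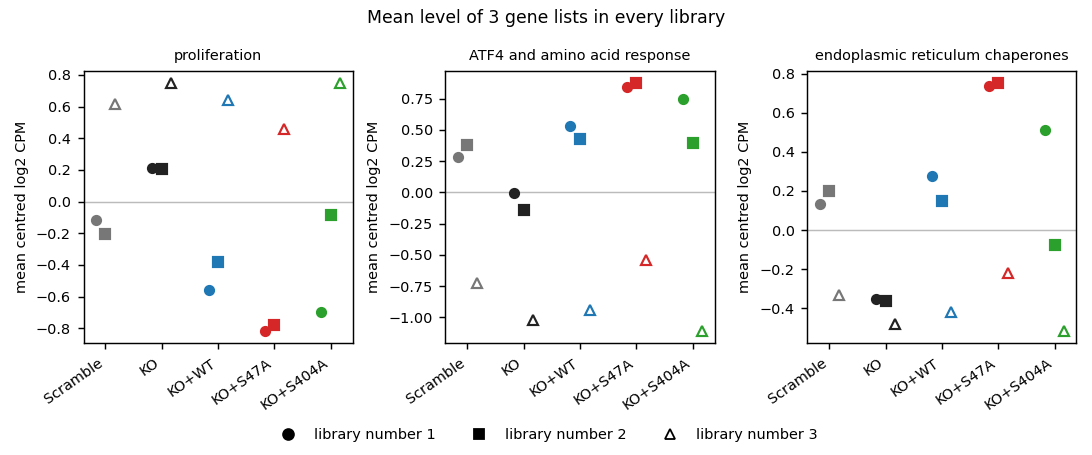
Mean log2 CPM of 3 gene lists in every library, each gene centred on its mean over the libraries; filled circles and squares are libraries 1 and 2, open triangles library 3. In libraries 1 and 2 the addback lines lie below KO for proliferation and above KO for the other lists, and the open triangles of KO and the lines lie close together except for KO_S47A.

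The S47A line had the largest median shift of the 3 lines on these lists. No gene of the lists was called as different among the lines, with all libraries or with the covariate. A difference of the list medians among the lines was not tested. In libraries 1 and 2 the proliferation median was -1.07 in KO_S47A, -0.70 in KO_WT and -0.60 in KO_S404A. The ATF4 list median was 0.86 in KO_S47A, 0.57 in KO_WT and 0.57 in KO_S404A, and the chaperone list median 1.01, 0.54 and 0.53. In the library numbered 3 the S47A line kept a median of -0.29, 0.40 and 0.18 on the 3 lists, where KO_WT had -0.11, 0.03 and 0.03 and KO_S404A -0.02, -0.09 and -0.03. The mean centred log2 level of proliferation genes was -0.11 and -0.20 in Scramble, 0.21 and 0.21 in KO and -0.82 and -0.78 in KO_S47A. KO_S404A library 2, which stood apart on the second component, lay at -0.09 against -0.70 in library 1, above both Scramble libraries.

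MCM10, a factor needed to start DNA replication, stood at 75.2 and 76.0 CPM in KO libraries 1 and 2 and at 26.8 to 54.2 CPM in libraries 1 and 2 of the addback lines, and at 118 CPM in KO library 3 against 92.8 to 120 CPM. The proliferation antigen MKI67 stood at 239, 186 and 287 CPM in KO, 92.2, 99.3 and 305 in KO_WT, 92.7, 94.0 and 216 in KO_S47A, with 96.7, 184 and 362 in KO_S404A. Levels of MKI67 in libraries 3 overlapped and those in libraries 1 and 2 did not (log2 fold change -0.67 ± 0.18 SE with the covariate, adjusted p = 0.0263). TYMS, the thymidylate synthase, stood at 91.1 and 101 CPM in KO libraries 1 and 2 and 53.8 to 73.0 CPM in the addback libraries, and at 138 CPM in KO library 3 against 115 to 128 CPM. TYMS thus lay below KO within both sets of libraries, with log2 differences of -0.63 and -0.15.

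Among ATF4 targets, DDIT3, the stress transcription factor CHOP, stood at 28.4, 26.3 and 12.9 CPM in KO and at 90.7, 72.7 and 15.2 in KO_WT, 161, 169 and 27.7 in KO_S47A, with 116, 47.1 and 11.2 in KO_S404A. It rose by 1.38 ± 0.28 SE on the log2 scale with the covariate (adjusted p = 0.0112). TRIB3, a pseudokinase that ATF4 induces, stood at 199, 191 and 71.2 CPM in KO and at 363, 328 and 67.9 in KO_WT, 513, 540 and 123 in KO_S47A, with 472, 309 and 68.0 in KO_S404A (0.79 ± 0.17 SE with the covariate, adjusted p = 0.0123). GDF15, a secreted stress cytokine, lay at 375, 349 and 113 CPM in KO and at 576 to 971 CPM in libraries 1 and 2 of the addback lines, and at 181, 430 and 100 CPM in library 3 of KO_WT, KO_S47A and KO_S404A. PCK2, SLC7A11 and ASNS, in gluconeogenesis, cystine uptake and asparagine synthesis, were higher by 0.76, 0.78 and 0.64 on the log2 scale with the covariate.

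HSPA5, the chaperone BiP, stood at 1694, 1603 and 1871 CPM in KO, at 3370, 2977 and 2127 in KO_WT, at 6848, 7374 and 2375 in KO_S47A and at 5142, 2601 and 1877 in KO_S404A. All 9 addback libraries lay above all 3 KO libraries, though by little for KO_S404A library 3. The log2 fold change of HSPA5 was 1.10 ± 0.34 SE with all libraries (adjusted p = 0.465) and 0.97 ± 0.23 SE with the covariate (0.017). HYOU1, an ER chaperone of the heat shock 70 family, was the other chaperone gene without overlap, at 646 to 700 CPM in KO and 711 to 2241 CPM in the addback lines. HERPUD1 and SYVN1, which take part in the disposal of misfolded proteins, stood at 184 to 198 and 68.0 to 86.4 CPM in KO libraries 1 and 2 and at 293 to 756 and 121 to 214 CPM in the addback libraries 1 and 2. The list also holds SELENBP1, which is no ER chaperone and was not called.

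Promoters of both stress lists were read for the elements that their regulators bind. The lists hold mostly known ATF4 targets and ER chaperones, so a high share of matches follows from their make-up. It is no result of these expression data, and whether the regulators acted here was not tested. The ER stress response element, bound by NF-Y with ATF6 or XBP1, was searched as CCAAT, 9 bases, CCACG on both strands from 250 bases before to 50 after the start in RefSeq promoters (GRCh38.p14). It matched 6 of 25 chaperone list promoters (24%), 0 of 37 ATF4 list promoters and 0 of 36 proliferation promoters, against 22 of 27305 promoters in the table (0.0806%) and 0.125% of those of tested genes. Windows of 59 bases are shown 5′ to 3′ along the gene's strand, with the match in capitals (the reverse complement where it lay on the other strand). HSP90B1 held another match nearer its start, not shown.
HSPA5 (chr9:125241371-125241429, minus strand): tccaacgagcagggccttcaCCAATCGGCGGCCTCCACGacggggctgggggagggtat
HSP90B1 (chr12:103930196-103930254, plus strand): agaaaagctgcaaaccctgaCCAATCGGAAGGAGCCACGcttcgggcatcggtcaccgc
CALR (chr19:12938364-12938422, plus strand): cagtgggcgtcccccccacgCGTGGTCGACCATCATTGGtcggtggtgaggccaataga
XBP1 (chr22:28800583-28800641, minus strand): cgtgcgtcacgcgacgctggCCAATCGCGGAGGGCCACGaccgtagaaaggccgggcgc
CRELD2 (chr22:49918534-49918592, plus strand): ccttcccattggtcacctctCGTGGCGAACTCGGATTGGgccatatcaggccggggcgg
CANX (chr5:179698758-179698816, plus strand): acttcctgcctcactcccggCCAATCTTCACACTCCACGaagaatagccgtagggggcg

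All 6 genes with a match rose with the covariate, by 0.97 (HSPA5), 0.54 (HSP90B1), 0.47 (CALR), 0.50 (XBP1), 0.71 (CRELD2) and 0.24 (CANX) on the log2 scale, with adjusted p from 0.0164 to 0.0435. Most list genes without a match rose as well, 23 of 27 having risen in all. The C/EBP-ATF response element, bound by ATF4 with a C/EBP partner, was searched as TGATGNAA on both strands of the same promoters. It matched 10 of 37 ATF4 list promoters (27.0%), 1 of 25 chaperone list promoters (4.0%) and 1 of 36 proliferation promoters (2.78%), against 3.67% of all promoters in the table and 1.75% of those of tested genes. It is shown for ASNS, the asparagine synthetase, ATF3, a stress-induced transcription factor, and CHAC1, which degrades glutathione.
ASNS (chr7:97872449-97872496, minus strand): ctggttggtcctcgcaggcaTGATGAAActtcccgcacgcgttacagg
ATF3 (chr1:212565196-212565243, plus strand): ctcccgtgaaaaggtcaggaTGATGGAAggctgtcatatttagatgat
CHAC1 (chr15:40953242-40953289, plus strand): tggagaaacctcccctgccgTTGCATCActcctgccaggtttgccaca

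The partners of ATGL in lipolysis were mostly not called. Of 22 tested genes of lipid droplets and lipolysis, 1, PNPLA2, was called with all libraries and 3 were higher and 0 lower with the covariate (PNPLA2, PLIN4 and LIPA, the lysosomal acid lipase, the last at an adjusted p of 0.05 after rounding). The shares over all tested genes were 6.54% higher and 7.52% lower with the covariate, and PNPLA2 is itself the added gene. The median log2 fold change of the list was -0.04. ABHD5, the coactivator of ATGL, stood at 31.2, 31.2 and 32.9 CPM in KO and at 26.9 to 32.2 CPM in the addback lines (log2 fold change -0.08 ± 0.07 SE, adjusted p = 0.598). LIPE, the hormone-sensitive lipase, and MGLL, the monoglyceride lipase, had log2 fold changes of -0.01 ± 0.19 SE and -0.14 ± 0.10 SE. PLIN2 was near the limit of detection, at no more than 0.504 CPM in any of the 12 libraries. G0S2 did not pass the filter on low counts. PLIN4, a lipid droplet coat protein, stood at 0.616, 0.648 and 0.0561 CPM in KO and rose by 1.39 ± 0.31 SE with the covariate (adjusted p = 0.0133), with the addback libraries at 1.11 to 1.97 CPM for libraries 1 and 2 and 0.202 to 0.383 CPM for libraries 3. PLIN4 lay above KO within both sets of libraries.

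Of 39 genes of fatty acid oxidation and PPAR targets, 0 were called with all libraries, and 4 were higher and 0 lower with the covariate, among them SLC25A20, the mitochondrial carnitine carrier, PPARG, a PPAR receptor, and CPT1C. Of all tested genes 6.54% were higher and 7.52% lower with the covariate. The median was 0.01 with all libraries and 0.00 with the covariate. PPARA, PDK4 and CPT1A had log2 fold changes of -0.12 ± 0.12, -0.71 ± 0.70 and 0.04 ± 0.07 (SE) with all libraries, none of them called. LPL, a lipase that acts on circulating lipoproteins, stood at 0.262 to 0.486 CPM in KO, 0.148 to 0.868 CPM in the addback lines and 9.03 to 15.0 CPM in Scramble.

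Where 6.54% of all tested genes rose and 7.52% fell with the covariate, 5 of 21 fatty acid synthesis genes fell and 0 rose (median -0.21), among them FASN, the fatty acid synthase. FASN stood at 1478, 1182 and 1219 CPM in KO, at 583, 656 and 1132 in KO_WT, 643, 644 and 1158 in KO_S47A, with 618, 1277 and 1322 in KO_S404A, so KO_S404A library 2 lay within the KO range. FASN fell by 0.61 with the covariate (SE 0.18, adjusted p = 0.0381). In KO_S404A alone its log2 fold change with the covariate was -0.31 and was not called (adjusted p = 0.524). Of 27 glycolysis genes 7 fell and 1 rose (median -0.16), of 25 cholesterol synthesis genes 4 fell and 2 rose, and of 29 triglyceride and phospholipid synthesis genes 2 fell and 2 rose. Of 26 genes of the tricarboxylic acid cycle 2 fell, and of 72 of the respiratory chain and ATP synthase 0 were called in either direction. Lysosome and autophagy genes had 10 higher and 0 lower of 40 (median 0.09). With all libraries 0 genes of these lists were called, and the covariate calls of fatty acid synthesis, glycolysis and the lysosome were all lost without KO library 2, and likewise without KO library 1 and without the S47A line.

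KLK3, the prostate-specific antigen gene, stood at 1991, 2210 and 2773 CPM in KO, 2837, 2638 and 3232 in KO_WT, 2336, 2148 and 3464 in KO_S47A, with 2414, 1830 and 2831 in KO_S404A, and overlapped (log2 fold change 0.18 ± 0.16 SE, adjusted p = 0.582). FKBP5, a glucocorticoid receptor target, stood at 276, 250 and 328 CPM in KO, 148, 175 and 272 in KO_WT, 117, 121 and 247 in KO_S47A, with 127, 221 and 303 in KO_S404A. It fell by 0.64 with the covariate (SE 0.13, adjusted p = 0.011), a call kept in 12 of the 15 repeats, and was not called with all libraries (adjusted p = 0.465). The interferon genes IFIT1 and ISG15 had log2 fold changes of -0.07 ± 0.40 and -0.09 ± 0.13 (SE), not called. Of 43 interferon response genes 3 rose and 1 fell with the covariate, with a median of 0.01. Of 40 Wnt and Frizzled genes 1, WLS, was called with all libraries, and 2 rose and 2 fell with the covariate (median -0.08), against a median of 0.00 over all tested genes and shares of 6.54% and 7.52%.

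The counts of further lists are to be read against the 6.54% of all tested genes that were higher and the 7.52% that were lower with the covariate. They were 23 hypoxia genes with 1 higher and 0 lower with the covariate, 25 mesenchymal and matrix genes with 5 higher and 1 lower, 25 luminal with 4 and 2, 6 basal with 0 and 0, 10 neuroendocrine with 1 and 0 and 30 NRF2 genes with 3 and 1. There were further 26 p53 targets with 3 higher and 0 lower, 12 NF-kB genes with 1 and 1, 29 immediate early genes with 1 and 2, 18 cadherins with 1 and 2, 20 ephrin genes with 2 and 3 and 22 cation channels with 3 and 0. Of 16 cancer-testis antigens 0 rose and 1 fell, of 31 TGF-beta genes 1 rose and 2 fell, of 9 aryl hydrocarbon receptor genes 0 were called, and of 23 AMPK genes 1 rose. Of 16 nucleic acid sensors 1 fell, of 24 replication-dependent histones 4 rose and 1 fell, of 8 stroma, endothelium and blood markers 2 rose, and of 11 markers of other epithelial lines 2 rose. With all libraries none of these lists had a called gene. COL12A1 was among the mesenchymal genes that rose, and KCNH8 among the cation channels.

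**Figure D4:**
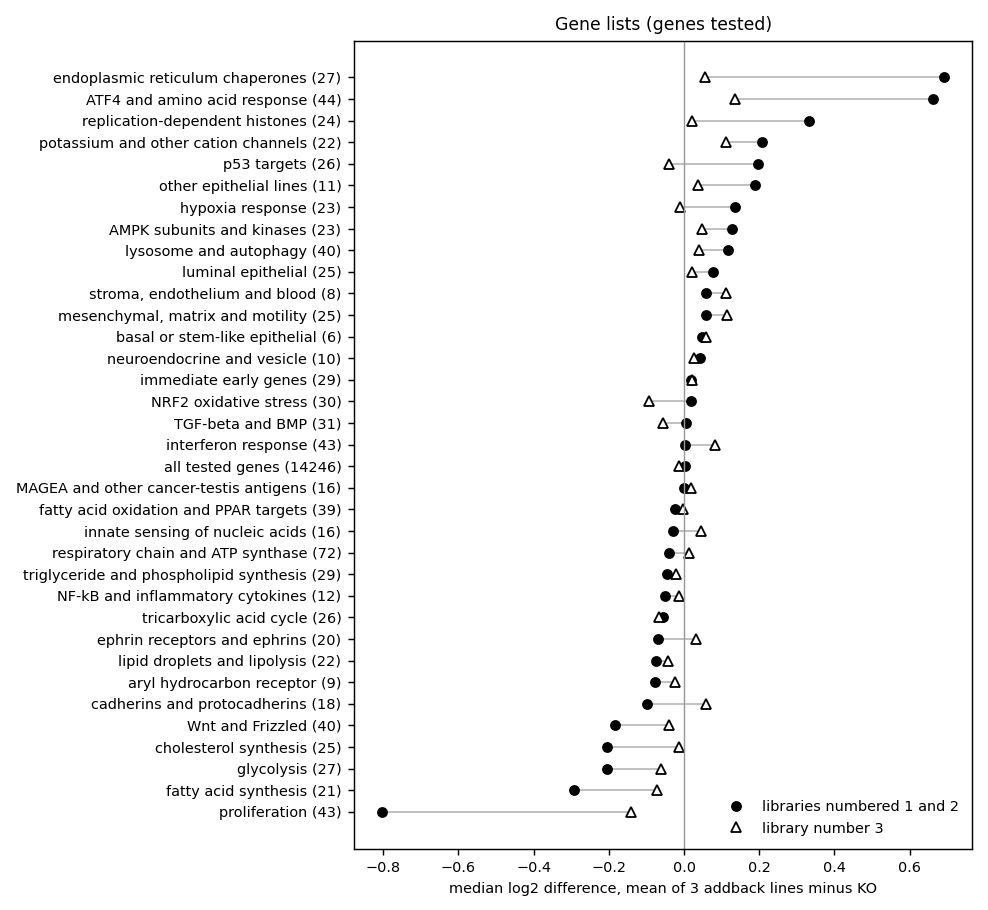
Median log2 difference between the mean of the 3 addback lines and KO for each gene list, with the number of genes tested in brackets; filled circles are libraries 1 and 2 and open triangles library number 3. Proliferation lies furthest below 0 (-0.80) and the chaperone and ATF4 lists furthest above (0.69 and 0.66) in libraries 1 and 2, and no list is beyond -0.14 or 0.14 in library number 3.

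The libraries numbered 3 were also used to see how far genes found in libraries 1 and 2 held in samples that had no part in finding them. Of 903 genes that were called higher in libraries 1 and 2 with no overlap of the 6 addback and 2 KO libraries, 354 (39.2%) had library 3 of all 3 addback lines above KO library 3, where 22.5% of all genes did. Of 836 called lower, 454 (54.3%) had all 3 below, where 25.4% of all genes did. The median log2 difference was 0.55 in libraries 1 and 2 and 0.10 in libraries 3 for the former, and -0.48 and -0.12 for the latter. The values come from 1 KO library of that number, so they have no error.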

How the data were processed

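Poly(A) RNA was sequenced in 15 libraries, 3 a line, with a directional kit, per the labels. The authors deposited raw read counts per gene for each library, per the file headers, beside FPKM values, which were not used in any test. The submitters' processing notes list CASAVA and STAR, with no version. Strand setting, genome build and annotation release of the counting were not given in the sources used here. Hence gene coordinates are printed only for promoters from RefSeq, and overlapping or antisense genes cannot be told apart. Unassigned reads, 13.2% to 19.3% of the 12 libraries, were left out.

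Genes were filtered with edgeR's filterByExpr (14246 of 20806 entries kept), scaled by TMM and tested with edgeR 4.0.16's quasi-likelihood test in R 4.3.3 over all 15 libraries, 1 mean per group, with 10 residual degrees of freedom. The pooled contrast is the mean of the 3 addback group means minus KO. Genes with a p under 0.05 after Benjamini-Hochberg adjustment over all genes tested are called. Levels are TMM-scaled CPM; the SE is the absolute log2 fold change over the square root of F. DESeq2 1.42.0, RLE size factors, no filter and other designs were alternatives. The code was tested on simulated counts. A shared change is a call with the same sign in each line and no overlap of the 9 addback and 3 KO libraries.

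Named genes are PNPLA2, called genes with a shared change and at least 1 CPM, and 18 lipid, prostate, proliferation and stress genes taken whatever their values; a group added after their values were seen is marked as such, and EPHA6, PCDH7, the example genes of lists and the 6 genes held in all repeats were chosen after seeing values. Some genes that these rules select are not reported here. The comparison, gene lists and rules were chosen with earlier results of these data known. Labels give each group library numbers 1 to 3. Deviations from group means of same-numbered libraries correlated at 0.16, 0.14 and 0.43 between KO and KO_WT and at 0.21, 0.15 and 0.43 between KO and KO_S47A, all above 0.1, and at 0.17, 0.02 and 0.51 between KO and KO_S404A. Libraries 1 and 2 of unlike number correlated about as much. KO 2 with KO_WT 1 had 0.25, KO 1 with KO_WT 2 had 0.15, KO 1 with KO_S47A 2 had 0.23 and KO 2 with KO_S47A 1 had 0.17. A pairing of libraries 1 and 2 by number is thus not shown for any line.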

Additional observations from a re-analysis of the deposited data

Results flagged for a closer look

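The log2 fold change of PNPLA2 against KO differed among the 3 addback lines, by a test of the difference itself (adjusted p = 0.0373), with the S47A line lowest and the S404A line highest. For 46 genes the highest and the lowest of the 9 addback libraries were examined for a value far from the rest, 92 tests in all, of which chance picks about 1 in 20 groups. It picked 2 values. LPL was highest in KO_S47A library 3, at 0.868 CPM, against 0.148 to 0.488 CPM in the other 8. CROCCL2 was lowest in KO_S404A library 2, at 0.870 CPM.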

How the results depend on the processing

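Counts of called genes depended on the treatment of the library number and the tool; the cause was not tested. The pooled count of 3 became 21 with DESeq2, 5 without the low-count filter, 5 without the S47A line, 1 with the 9 addback libraries as 1 group, 1936 with the replicate block, 2181 in libraries 1 and 2 and 2004 with the covariate. Leaving out 1 library gave 1 to 7 calls. Shared changes, 3, became 16, 5 (without the S47A line), 1 (1 group), 132 (replicate block), 1743 and 141 in the same order, 1 when called in each line, and 1 to 7 without 1 library. KO_WT, 4 genes, gave 8 with DESeq2, 15, 43 and 21 with the replicate block, in libraries 1 and 2 and with the covariate, and 3 to 5 without 1 library. KO_S47A, 1 gene, gave 33, 3150, 3098 and 3259, and 1 to 15. KO_S404A, 3 genes, gave 8, 14, 403 and 20, and 1 to 5. The difference among lines, 1 gene, gave 5, 3, 2 and 4, and 0 to 1; with the covariate, leaving out 1 library gave 2 to 2581. In the pooled and KO_S404A comparisons the numbers do not pair every library (KO 2 with KO_S404A 2, r = 0.02), and KO library 1 was closer to KO_S404A library 2 (r = 0.28) than to library 1, so their block counts are given only here. Libraries 1 and 2 were not clearly paired by number in KO_WT and KO_S47A either (KO 2 with KO_WT 1, r = 0.25, and with KO_WT 2, r = 0.14).

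With the covariate the pooled count of 2004 was 48 without the S47A line, and 6 (without KO library 2) to 3636 (without KO_S404A library 2) without 1 library. The shared count of 141 was 15 without the S47A line, 776 without the S404A line and 5 to 346 without 1 library. RLE size factors and the 12 libraries alone gave 3 and 4 pooled calls. Over 46 genes and their alternatives, 1058 pairs, 941 kept direction and side of the threshold, 6 lost and 87 gained a call, and 24 changed sign, all of them for LIPE, LPL, CPT1A, IFIT1 and ISG15, which were not called. Without the S404A line LIPE had a log2 fold change of 0.0977, LPL 0.0835 and CPT1A -0.0100. CPT1A had -0.0149 in libraries 1 and 2, and IFIT1 had 0.0217 without the S47A line. Leaving out 1 library gave -0.0897 to 0.0604 for LIPE, -0.468 to 0.267 for LPL, -0.00785 to 0.122 for CPT1A, -0.307 to 0.237 for IFIT1 and -0.196 to 0.00647 for ISG15. Genes under about 1 CPM rest on few counts, and 1 line per genotype means that line and construct cannot be told apart.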
